A study of Mus musculus with 4 samples.

Results

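The annexins are a family of cytosolic proteins that attach to membranes when calcium rises. Their transcripts were followed here through the 8 members Anxa1, Anxa2, Anxa3, Anxa4, Anxa5, Anxa6, Anxa7 and Anxa11 in mouse fibroblasts with a knockdown of selenoprotein T. The members were taken by gene name from the table of array values. Each of the 8 was represented by 1 probe with a value on all 4 arrays, so 8 of 22534 probes, and 8 of the 4754 genes tested, are described.

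The cells were NIH 3T3, an established line of mouse embryonic fibroblasts, kept under hygromycin B at 150 µg/ml after transfection, in medium with 10% serum and 100 nM sodium selenite. One group carried pU6-m3 with the insert siSelT-1 (nucleotides 205 to 224 of the Selt mRNA) and the other pU6-m3 with siSelT-5 (nucleotides 971 to 989), and empty pU6-m3 vector cells were the comparison on every array. Each construct was measured on 2 arrays, with RNA from knockdown cultures grown separately and hybridised at different times per the study's design text, Cy5 on the knockdown RNA and Cy3 on the vector RNA. The deposited value is the log ratio of the channels, read here as log2 of knockdown over vector. The labels state neither its base nor its normalization, and the dye was never swapped. Every array thus compares stably selected populations, and a dye effect specific to a probe stays in each ratio against vector. The targeted gene has no named probe among these values, so the knockdown itself was not checked here.

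Annexins share a conserved core of repeats that binds calcium and acidic phospholipids, and differ in the amino-terminal tail, which binds partners such as S100 proteins. They act in membrane trafficking, plasma membrane repair, the organisation of cortical actin and the control of inflammation, and fibroblasts contain several of them at once. Selenoprotein T is a thioredoxin-like protein of the endoplasmic reticulum, the main calcium store of the cell, and work in rat neuroendocrine cells has tied it to calcium release. The ratios carry no signal intensities, so the abundance of an annexin, and its level beside that of another, was not measured here. In a bulk RNA sample, fewer cells that express a gene and less RNA per cell cannot be told apart.

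The sequences around 4 transcription starts are shown because these members mark the ends and the middle of the results. Anxa4 had the highest ratios, Anxa11 and Anxa2 stood above vector on every array, and Anxa1 had the lowest mean. Each window runs from 250 bases before to 50 bases after the annotated start and is read 5′ to 3′ on the gene's strand, from RefSeq, build GRCm38.p6. Capitals mark matches on either strand to the TATA box TATAAA, the CCAAT box, the GC box GGGCGG, the AP-1 motif TGANTCA, the E box CACGTG, the antioxidant response core TGACNNNGC or the NF-kB consensus, and overlapping matches run together. The motifs were chosen with the sequences in view.
Anxa4, chr6:86793535-86793834, minus strand: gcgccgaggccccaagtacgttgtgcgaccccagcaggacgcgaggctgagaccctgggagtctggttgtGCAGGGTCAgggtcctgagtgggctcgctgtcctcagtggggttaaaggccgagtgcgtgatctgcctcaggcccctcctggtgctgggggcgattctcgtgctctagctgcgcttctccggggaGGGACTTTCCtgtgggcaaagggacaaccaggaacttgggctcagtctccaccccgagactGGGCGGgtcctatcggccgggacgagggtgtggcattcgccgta
Anxa11, chr14:25841905-25842204, plus strand: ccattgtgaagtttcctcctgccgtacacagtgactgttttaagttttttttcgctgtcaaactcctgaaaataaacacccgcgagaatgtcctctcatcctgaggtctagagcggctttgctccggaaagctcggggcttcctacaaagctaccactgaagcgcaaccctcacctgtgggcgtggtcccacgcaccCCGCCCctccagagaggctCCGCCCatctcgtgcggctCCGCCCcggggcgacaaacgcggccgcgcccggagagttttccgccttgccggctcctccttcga
Anxa2, chr9:69453433-69453732, plus strand: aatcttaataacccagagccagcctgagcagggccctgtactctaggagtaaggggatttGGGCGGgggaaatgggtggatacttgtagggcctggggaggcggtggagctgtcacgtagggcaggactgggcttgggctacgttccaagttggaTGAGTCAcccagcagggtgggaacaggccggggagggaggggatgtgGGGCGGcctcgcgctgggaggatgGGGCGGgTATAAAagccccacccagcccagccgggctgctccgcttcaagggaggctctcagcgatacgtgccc
Anxa1, chr19:20390622-20390921, minus strand: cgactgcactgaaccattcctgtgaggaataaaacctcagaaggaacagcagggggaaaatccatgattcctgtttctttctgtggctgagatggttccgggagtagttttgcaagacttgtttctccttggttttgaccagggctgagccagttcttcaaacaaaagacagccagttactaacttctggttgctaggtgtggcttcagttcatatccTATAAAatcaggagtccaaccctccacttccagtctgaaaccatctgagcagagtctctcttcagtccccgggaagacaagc

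The table held windows for 6 of the 8 members, and Anxa3 and Anxa6 had none. The Anxa4 window held a TGACNNNGC match beginning 180 bases before the start, an NF-kB consensus match 55 bases before it and a GGGCGG match 6 bases after it. The Anxa11 window held 3 GGGCGG matches, 53, 34 and 15 bases before the start. Anxa2 held 1 match to TATAAA, 3 to GGGCGG and 1 to the AP-1 motif, and Anxa1 held TATAAA, 32 bases before the start, and no other motif searched. A second annotated Anxa4 start, not shown, matched none of the 7. Among 32851 annotated windows of this length, TATAAA occurred in 13.6%, CCAAT in 37.4%, GGGCGG in 35.7%, TGANTCA in 7.81%, CACGTG in 7.15%, TGACNNNGC in 12.4% and the NF-kB consensus in 8.46%. The windows of Anxa4 and Anxa1 differed in base composition, with 65.3% and 47.3% G or C. These matches describe letters in the window and not binding.

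With the constructs averaged, the question was whether knockdown cells as a whole stood apart from vector cells. Anxa4, Anxa11, Anxa6, Anxa2 and Anxa5 rose, by 1.22-fold to 1.83-fold, and Anxa1, Anxa3 and Anxa7 did not pass. The threshold was an adjusted p (Benjamini-Hochberg over 4754 genes, limma, two-sided) below 0.05. Thus 5 of 8 members were higher and 0 lower, where 45.7% of all genes were called higher and 8.04% lower in the same fit. The members' median log2 ratio was 0.37, against 0.25 over all tested genes. The ratios of the probes measured on all 4 arrays were not centred on 0, with a mean shift of 0.27. Values after removal of each array's own median over these probes are called centred. Medians over all values were 0.18 and 0.06 on the siSelT-1 arrays but -0.22 and -0.19 on the siSelT-5 arrays. Centring on those medians was not run and would raise the siSelT-5 values. On the centred scale Anxa4 was the member that rose and Anxa1 and Anxa7 fell, 1 higher and 2 lower of 8, where 20.5% of genes were called higher and 21.9% lower. Without siSelT-1 replicate 1 the fit called 0 members and 0 of 4754 genes, with 1846 genes at an unadjusted p under 0.05. Without siSelT-1 replicate 2 it called 1 member, Anxa4, and 873 genes. When 1 array of a construct is left out, the spread comes from the other construct's replicates alone, and the lone array is assumed to vary like them.

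**Figure D1:**
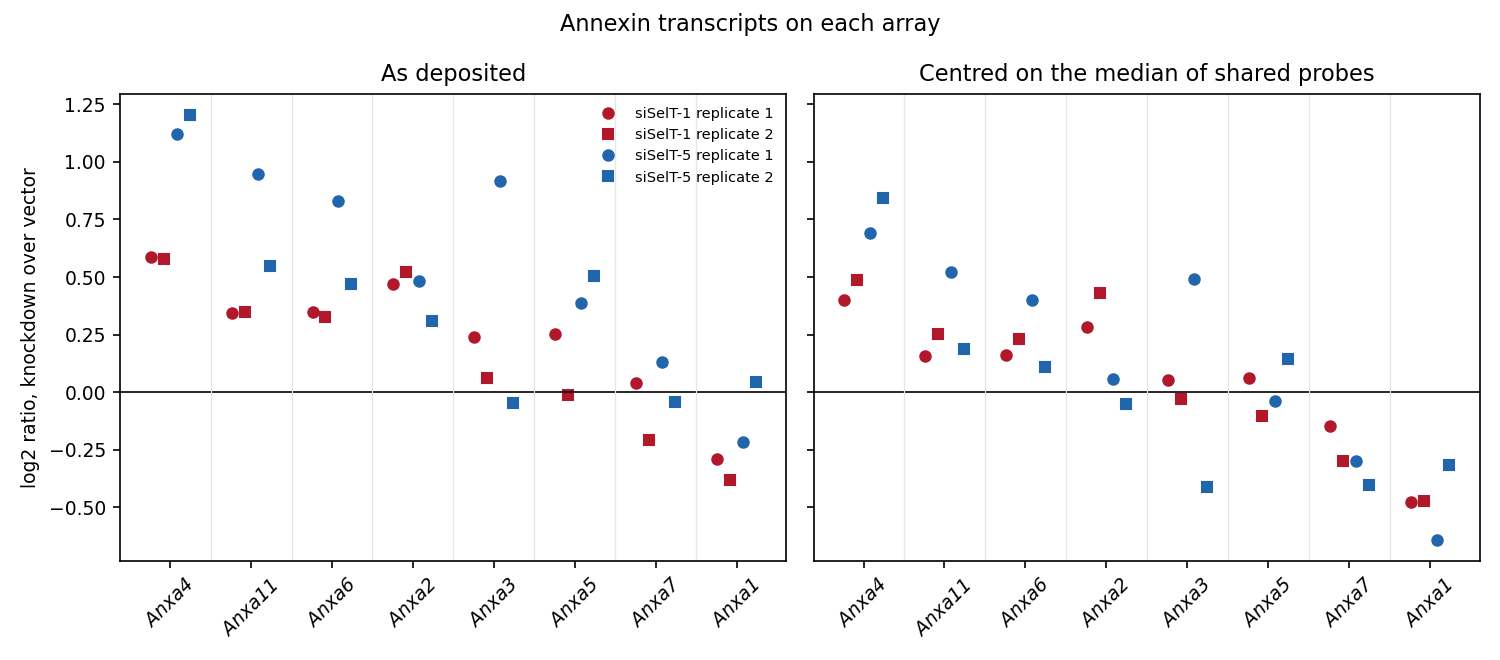
Log2 ratios of knockdown over vector (vertical axis) of the 8 annexins, ordered by mean, on each of the 4 arrays, as deposited (left) and centred (right). Points are single arrays, red for siSelT-1 and blue for siSelT-5, circles for replicate 1 and squares for replicate 2. Anxa4 is highest on all 4 arrays as deposited, and Anxa1 and Anxa7 lie below 0 on all 4 after centring.

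Anxa4 encodes a small annexin known from secretory epithelia, where it coats membranes and restrains a calcium-activated chloride current. Its log2 ratios were 0.59 and 0.58 with siSelT-1 and 1.12 and 1.20 with siSelT-5. All 4 arrays stood above vector, and both siSelT-5 values lay above both siSelT-1 values. The mean was 0.87 ± 0.34 (SD, n = 4), or 1.83-fold, with a limma adjusted p = 0.00161 and a 95% interval of 0.68 to 1.06. The SD over 4 arrays, here and for the other members, includes the difference between constructs. The p and the interval rest on the spread of replicates within constructs and do not measure variation between constructs. Anxa4 was the member with the highest ratio on 4 of 4 arrays, and 95.8% of tested genes had a lower mean. Centred, its mean was 0.61 ± 0.20 (SD, n = 4), and it was still called (limma adjusted p = 0.00538). The call was lost in 1 of 13 alternatives, without siSelT-1 replicate 1, and the adjusted p ran from 3.37e-09 to 0.0515 over the 13.

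Anxa11 and Anxa6 had similar ratios. Anxa11 encodes the annexin with a long proline-rich tail, which binds S100A6 and has been linked to cytokinesis and to the carriage of RNA granules on lysosomes. With siSelT-1 its log2 ratios were 0.34 and 0.35, and with siSelT-5 they were 0.95 and 0.55. Anxa6, whose core is duplicated and which acts at cholesterol-rich membrane and endosomes, had 0.35 and 0.33 with siSelT-1 and 0.83 and 0.47 with siSelT-5. In both genes every array was above vector, the siSelT-1 replicates nearly coincided and the siSelT-5 replicates were further apart. The means were 0.55 ± 0.28 for Anxa11 and 0.49 ± 0.23 for Anxa6 (SD, n = 4 each), with limma adjusted p-values of 0.00631 and 0.00758. Centred, Anxa11 stood at 0.28 and Anxa6 at 0.23, still above 0 on all 4 arrays, and neither passed (limma adjusted p = 0.0512 and 0.0776).

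Anxa2 encodes the annexin that pairs with S100A10, gathers at the cell surface with plasminogen and its activator, and links membranes to actin. Its log2 ratios were 0.47 and 0.52 with siSelT-1 and 0.48 and 0.31 with siSelT-5. The constructs overlapped, and the SD over the 4 arrays was the lowest of the 8 members. The mean was 0.45 ± 0.09 (SD, n = 4), with a limma adjusted p = 0.00658. Centring changed its picture: the siSelT-1 values became 0.28 and 0.43, the siSelT-5 values 0.06 and -0.05, and the mean of 0.18 did not pass (limma adjusted p = 0.0996).

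Anxa5 encodes the phosphatidylserine-binding annexin used as a stain for dying cells. Its log2 ratios were 0.25 and -0.01 with siSelT-1 and 0.39 and 0.50 with siSelT-5. It lay above vector on 3 of 4 arrays and at about the vector level on siSelT-1 replicate 2. The mean of 0.28 ± 0.22 (SD, n = 4) passed at a limma adjusted p = 0.037, the closest to the threshold of the 5 called members, and the call was lost in 7 of 13 alternatives. Among these were a common spread (adjusted p = 0.0682), the replicate block (0.0529) and a filter that asks for 1 array of each construct (0.0567). Centred it stood at 0.02 and did not pass (limma adjusted p = 0.881). Its mean ratio was close to the mean shift of 0.27 of the probes measured on all 4 arrays.

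Anxa1 encodes the glucocorticoid-induced annexin that restrains inflammation through formyl peptide receptors. Its log2 ratios were -0.29 and -0.38 with siSelT-1 and -0.22 and 0.05 with siSelT-5. It was the lowest member on 3 of 4 arrays, below vector on all but siSelT-5 replicate 2. The mean of -0.21 ± 0.18 (SD, n = 4) did not pass as deposited (limma adjusted p = 0.0856). Centred, it fell to -0.48 ± 0.13 (SD, n = 4; limma adjusted p = 0.012), below 0 on all 4 arrays and nearly the same with either construct, at -0.47 for siSelT-1 and -0.48 for siSelT-5.

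Anxa7 encodes synexin, named for its part in the fusion of secretory granules. Its log2 ratios were 0.04 and -0.21 with siSelT-1 and 0.13 and -0.04 with siSelT-5. Values lay on both sides of vector within each construct, and the mean of -0.02 ± 0.14 (SD, n = 4) did not pass (limma adjusted p = 0.865). Centred, it lay below 0 on all 4 arrays and fell to -0.29 ± 0.11 (SD, n = 4; limma adjusted p = 0.0305).

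Anxa3, a further small member of the family, had the largest spread. The siSelT-1 arrays gave log2 ratios of 0.24 and 0.06 and the siSelT-5 arrays 0.92 and -0.05. The siSelT-5 replicates thus held both the highest and the lowest of its values. The mean of 0.29 ± 0.43 (SD, n = 4) did not pass as deposited (limma adjusted p = 0.183) or centred (0.905). Without siSelT-5 replicate 2 the mean was 0.53 (limma adjusted p = 0.000854), and without siSelT-5 replicate 1 it was 0.05 (0.603), with the spread taken from the closer siSelT-1 pair in both cases. Its value thus rests on which siSelT-5 array is used.

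By mean ratio the members ran from Anxa4 through Anxa11, Anxa6, Anxa2, Anxa3, Anxa5 and Anxa7 to Anxa1. Of the 7 pairs of neighbours, 5 lay closer than the larger of their SDs. The exceptions were Anxa5 over Anxa7, higher on 4 of 4 arrays with a gap of 0.30, and Anxa7 over Anxa1, higher on 3 of 4 arrays with a gap of 0.19. Anxa4 over Anxa11 had the widest gap, 0.33, and the same order on 4 of 4 arrays, and the SD of Anxa4 was 0.34. Both genes of a pair were read on the same arrays, and these SDs include the difference between constructs. They thus do not measure the spread of a gap within arrays, which was not computed. At the ends of the order, the ratio of Anxa4 exceeded that of Anxa1 on all 4 arrays. The ends were picked by their means over the same arrays, so this is no separate evidence that they stand apart. As deposited, 4 members were above vector on every array, namely Anxa2, Anxa4, Anxa6 and Anxa11. All 4 arrays were above 0 for 44.9% of tested genes, so 4 of 8 is near that share. Centred, 3 members stood above 0 on all 4 arrays and 2 below, where 25.2% of genes did each.

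**Figure D2:**
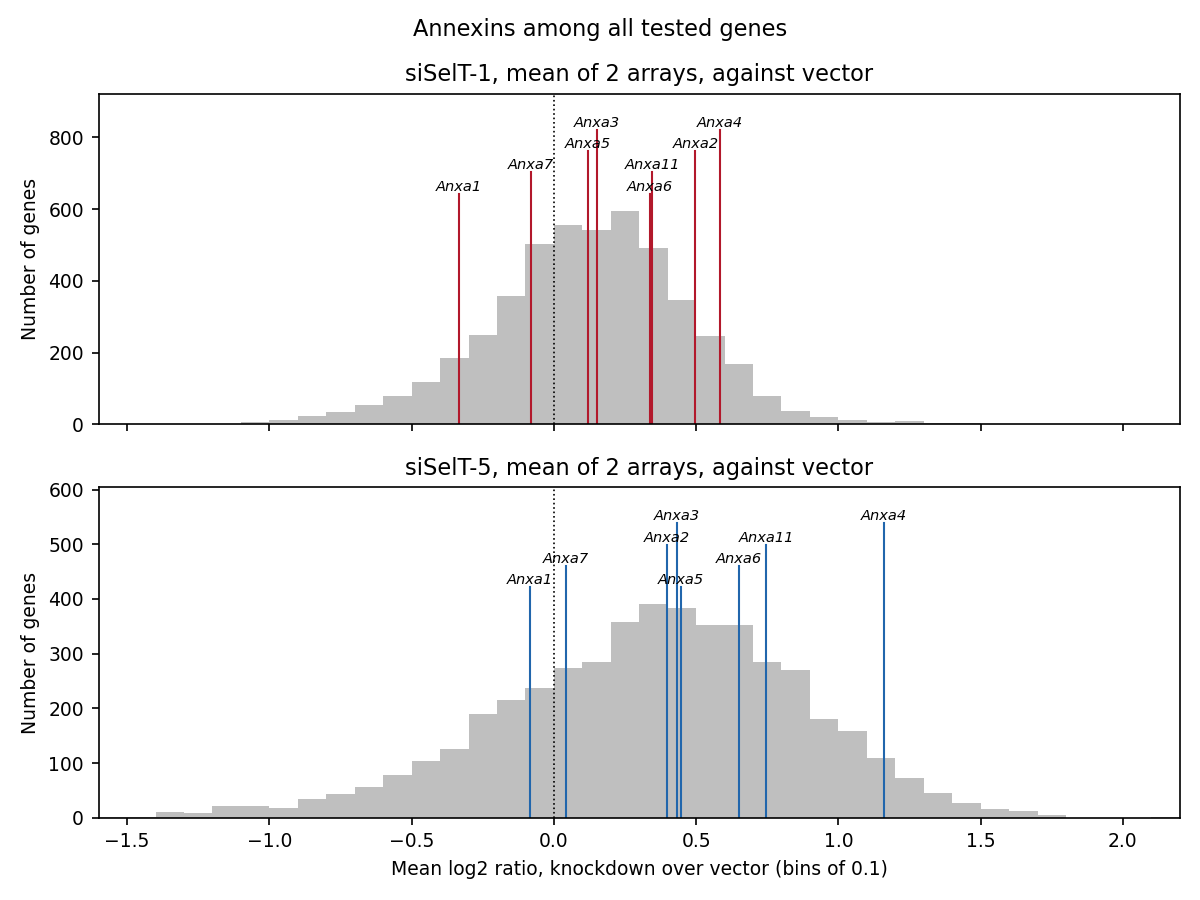
Number of tested genes (vertical axis) by mean log2 ratio against vector (horizontal axis, bins of 0.1) for siSelT-1 (top) and siSelT-5 (bottom), each the mean of 2 arrays, with the 8 annexins marked by coloured lines whose heights carry no value. Anxa4 lies in the upper tail for both constructs and Anxa1 in the lower part, with the other members spread through the body of all genes.

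For siSelT-1 alone, Anxa4 and Anxa2 rose and the other members did not pass. Anxa4 stood at 0.58 ± 0.01 and Anxa2 at 0.50 ± 0.04 (SD, n = 2 each), with limma adjusted p-values of 0.0338 and 0.0456. This made 2 of 8 members higher and 0 lower, where 10.3% of all genes were called higher and 3.37% lower. Anxa11 (0.35), Anxa6 (0.34) and Anxa1 (-0.33) had close replicates and missed the threshold (limma adjusted p = 0.136, 0.132 and 0.115). Anxa3 (0.15), Anxa5 (0.12) and Anxa7 (-0.08) were further from it. The median member stood at 0.24, against 0.14 over all genes. Centred, 0 of 8 members were called by limma, where 3.83% of genes were higher and 5.07% lower. An unadjusted limma p under 0.05 was found for 3 members (Anxa1, Anxa2 and Anxa4) and for 1548 of 4754 genes. The limma fit takes 1 spread from both constructs, and the siSelT-1 replicates of these genes were closer than those of siSelT-5, with a root mean square SD of 0.10 against 0.29. Fitted on the siSelT-1 arrays alone, 5 members passed, 4 higher and 1 lower, and the lower one was Anxa1. That fit called 2083 of 4968 genes. Fewer members passed when a siSelT-1 array was left out. Without a siSelT-5 array, when the siSelT-1 pair alone gives the spread, more members and more of all genes passed.

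For siSelT-5 alone, Anxa4 rose to 1.16 ± 0.06 (SD, n = 2), or 2.24-fold, with a limma adjusted p = 0.00202. Anxa11 rose to 0.75 ± 0.28, Anxa6 to 0.65 ± 0.25, Anxa5 to 0.45 ± 0.08 and Anxa2 to 0.40 ± 0.12 (SD, n = 2 each), with limma adjusted p-values between 0.007 and 0.0292. Anxa3 (0.43), Anxa7 (0.04) and Anxa1 (-0.08) did not pass. So 5 of 8 members were higher and 0 lower, where 47.6% of all genes were higher and 6.29% lower. The members' median of 0.44 lay close to the 0.37 of all genes. Centred, Anxa4 rose (0.77), Anxa1 and Anxa7 fell (-0.48 and -0.35), and the rest did not pass, so 1 was higher and 2 were lower where 19.2% and 20.0% of genes were. Anxa4 passed for siSelT-5 in 14 of 14 alternatives. Fitted on the siSelT-5 arrays alone it was the member that passed, 1 of 8, beside 2798 of 9711 genes. Leaving out either siSelT-1 array changes the spread used for all genes, and fewer members were called then.

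siSelT-1 minus siSelT-5 asks whether the constructs differed, and a dye effect that is equal on all arrays cancels in it. Each construct has its own selected cells and its own 2 arrays, so construct, cells and arrays cannot be told apart in it. The median difference over all tested genes was -0.26 as deposited and -0.01 centred, so negative values as deposited are shared by most genes. Anxa4 had the largest difference among the members as deposited, at -0.58 (95% interval -0.95 to -0.20), lower with siSelT-1, and it did not pass (limma adjusted p = 0.0666). Centred, it stood at -0.33, and the largest was that of Anxa2 at 0.35 (limma adjusted p = 0.227 and 0.205). Neither did the differences as deposited pass for Anxa11 at -0.40 (-0.88 to 0.07), Anxa5 at -0.33 (-0.75 to 0.10) and Anxa6 at -0.31 (-0.77 to 0.15), with adjusted p-values from 0.192 to 0.274. Centred, these were -0.15 for Anxa11, -0.07 for Anxa5 and -0.06 for Anxa6, and without siSelT-5 replicate 1 Anxa11 stood at -0.20 and Anxa6 at -0.13 as deposited. As deposited, Anxa2 alone had a positive difference, 0.10 (-0.29 to 0.49), while centred Anxa7 (0.13) and Anxa1 (0.004) were also above 0. The interval of Anxa3 was the widest, from -1.10 to 0.54, and those of Anxa1 (-0.67 to 0.17) and Anxa7 (-0.56 to 0.31) also spanned 0. The intervals that span 0 are wide and do not show that the constructs act alike. No member passed by limma, where 0.0210% of genes were called higher and 0.0421% lower, as deposited and centred alike. As deposited, an unadjusted limma p under 0.05 was found for 1 member, Anxa4, and for 1697 of 4754 genes. Without siSelT-5 replicate 1 limma called Anxa4 (adjusted p = 0.0191), and without siSelT-5 replicate 2 Anxa4, Anxa11, Anxa6 and Anxa3. In these fits the siSelT-1 pair alone gives the spread, and 1796 and 1789 of 4754 genes were called, against 3 with all arrays.

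Both siSelT-5 values exceeded both siSelT-1 values in 5 members, Anxa1, Anxa4, Anxa5, Anxa6 and Anxa11, and so did those of 52.6% of all tested genes. After centring this held for Anxa4 alone, against 32.0% of genes. The opposite order held for Anxa2, whose siSelT-5 values both lay below its siSelT-1 values after centring, as in 28.3% of genes. The shared probes were shifted by 0.14 on the siSelT-1 arrays and by 0.39 on the siSelT-5 arrays.

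**Figure D3:**
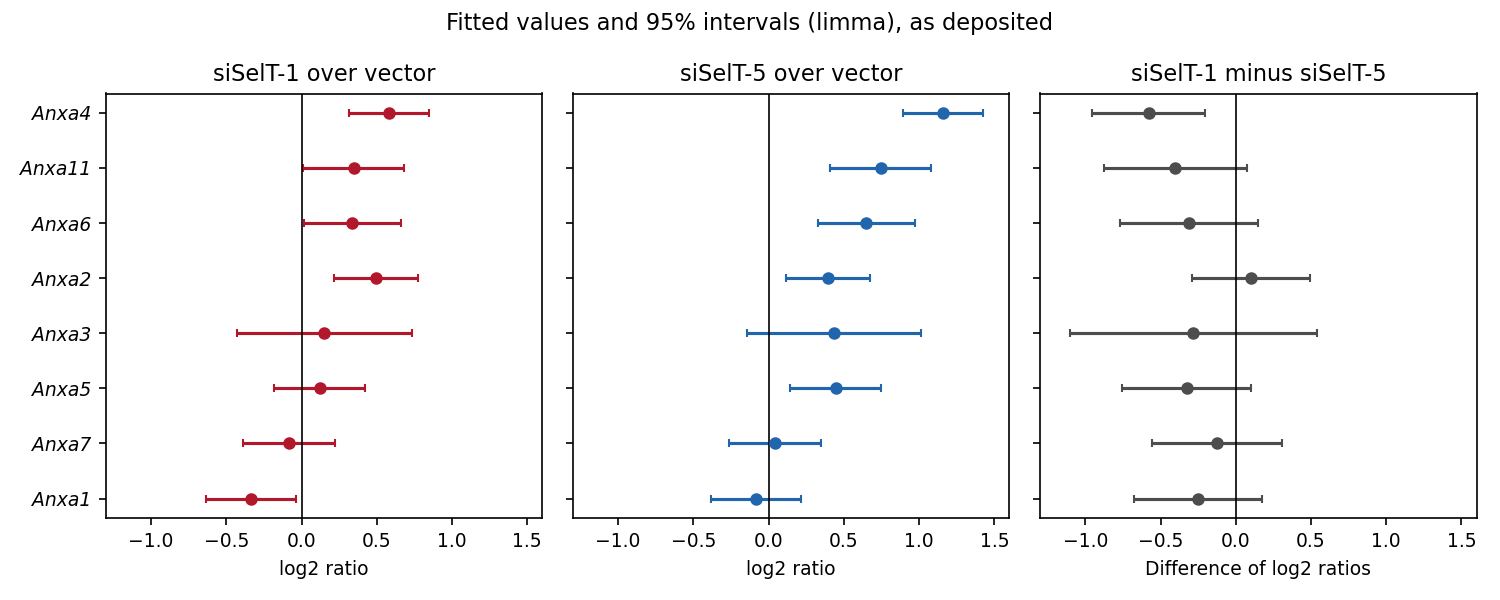
Fitted log2 values (points) and 95% intervals (bars) of the 8 annexins for siSelT-1 over vector, siSelT-5 over vector and siSelT-1 minus siSelT-5 (horizontal axes), as deposited, from limma with 2 arrays per construct. Anxa4 lies above 0 for both constructs and below 0 in the difference, where its interval of -0.95 to -0.20 is not adjusted for the number of genes tested.

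Genes that work with annexins were taken from lists of partners, calcium-dependent membrane binders and membrane repair factors. Of 16 genes on the list of partners and other calcium binders, 7 were tested, and 4 rose and 0 fell for both constructs together, near the 45.7% higher and 8.04% lower of all genes. For siSelT-1 alone 0 of the 7 were called by limma, where 10.3% of all genes were higher and 3.37% lower. For siSelT-5 alone 5 were higher and 0 lower, where 47.6% of all genes were higher and 6.29% lower. The 4 that rose for both constructs together were Capg, S100a11, S100a6 and Ahnak, and siSelT-5 alone added Hsp90b1 (0.38, limma adjusted p = 0.0283). Capg is an actin-capping protein, and S100a11 and S100a6 are calcium-binding proteins that dock on annexin tails. Ahnak is a giant scaffold at the plasma membrane that binds annexin 2 with S100A10. S100a11, a partner of annexins 1 and 2, had log2 ratios of 0.41 and 0.24 with siSelT-1 and 0.96 and 0.74 with siSelT-5, with a mean of 0.59 ± 0.33 (SD, n = 4; limma adjusted p = 0.0037). S100a6, a partner of annexin 11, had 0.57 and 0.34 with siSelT-1 and 0.67 and 0.72 with siSelT-5, with a mean of 0.57 ± 0.17 (SD, n = 4; limma adjusted p = 0.0035). Both stood above vector on every array and were still called after centring, at 0.32 and 0.31. Capg averaged 0.72 and Ahnak 0.40, and of these Ahnak did not pass centred. Sri, for sorcin, a partner of annexin 7, stood at -0.07 and did not pass as deposited, and fell to -0.33 centred. The list's median was 0.40 against 0.25 over all genes. After centring 3 of the 7 were higher and 2 lower, where 20.5% of all genes were higher and 21.9% lower.

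S100a10, the main partner of annexin 2, was measured with siSelT-5 but not with siSelT-1, at -0.15 and -0.51, and was not tested. Anxa8, a further annexin outside the 8, was measured in the same way, at -0.24 and -0.41. The 7460 probes with values on both siSelT-5 arrays and neither siSelT-1 array had medians of -0.61 and -0.63, so both genes lay above the middle of such probes. Values of this class are not set beside those of the 8 members.

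Of 23 listed membrane repair genes 16 were tested, and 6 rose and 2 fell as deposited, or 3 and 4 after centring. Over all genes 45.7% were higher and 8.04% lower as deposited, and 20.5% and 21.9% centred, so these counts are near the background. The caveolar genes Cav1 (0.63 ± 0.38) and Cavin1 (0.51 ± 0.09) and the ESCRT genes Chmp1a (0.58 ± 0.25) and Vps28 (0.50 ± 0.17) rose (SD, n = 4 each; limma adjusted p from 0.00241 to 0.00421). Chmp2b (-0.47) and Vps4b (-0.51), also of the ESCRT machinery that pinches membrane, fell on both scales. The median was 0.15, below that of all genes. Of 41 listed C2 domain genes, which bind membranes through another calcium-dependent fold, 9 were tested. For both constructs together Cpne8, a copine, rose to 0.25 and Nedd4, a ubiquitin ligase, fell to -0.44. Prkca (-0.23) and Nedd4l (0.28) did not pass. This made 1 of 9 higher and 1 lower, where 45.7% of all genes were higher and 8.04% lower. After centring 0 of the 9 rose and 3 fell, among them Prkca at -0.49, where 20.5% of all genes were higher and 21.9% lower. The median was 0.07 as deposited, against 0.25 over all genes. For siSelT-1 alone 0 were higher and 1 lower, where 10.3% and 3.37% of all genes were. For siSelT-5 alone 4 were higher and 0 lower, where 47.6% and 6.29% were. These 4 were Myof (0.51), Esyt1 (0.49), Tollip (0.40) and Nedd4l (0.55), which stood at -0.20, -0.12, -0.30 and 0.01 with siSelT-1. Of 9 plasminogen activation genes 2 were tested, Plat (0.12) and Plgrkt (0.07), and for both constructs together 0 passed by limma on either scale, with 0 at an unadjusted p under 0.05. Plat stood at 0.26 with siSelT-1 and -0.03 with siSelT-5, and Plgrkt at -0.34 and 0.48, with 0 called for either construct as deposited. Centred, Plat fell for siSelT-5 (-0.42, limma adjusted p = 0.0274), where 20.0% of all genes were lower.

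**Figure D4:**
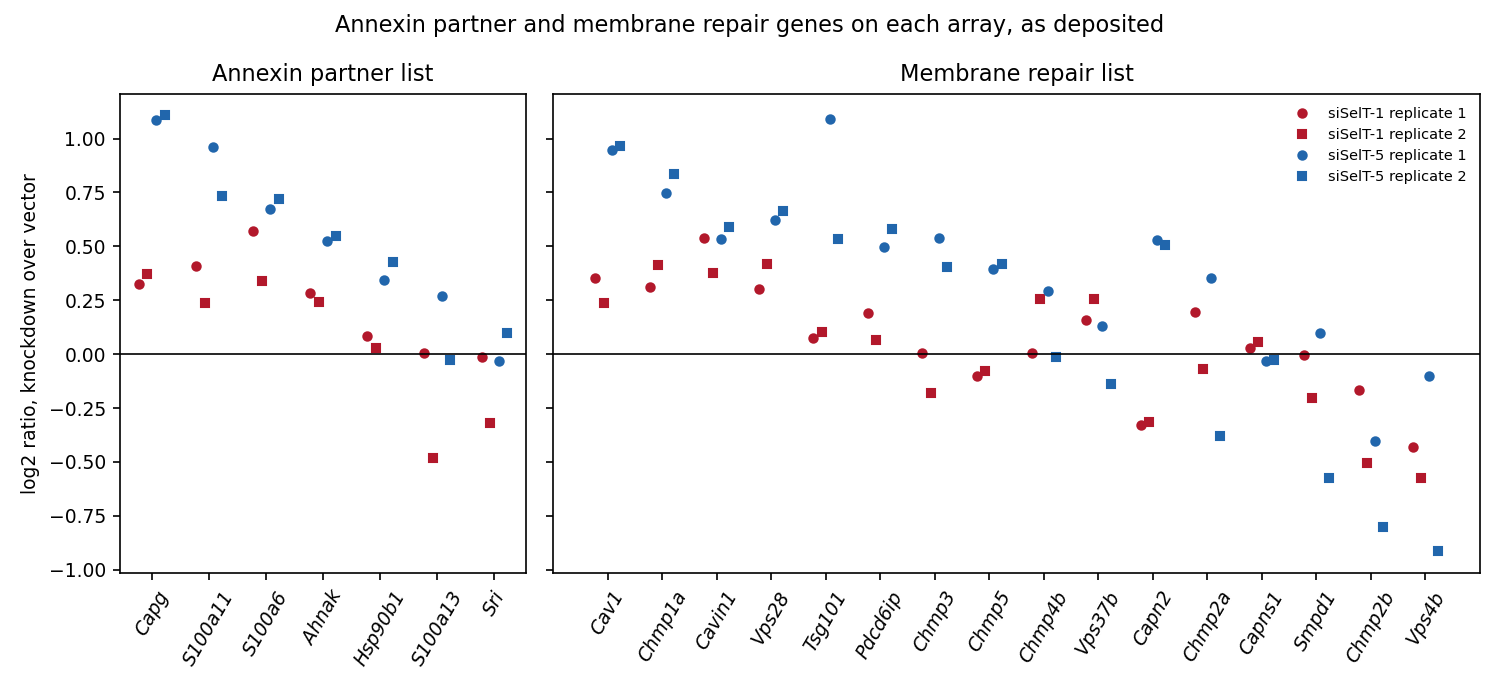
Log2 ratios of knockdown over vector as deposited (vertical axis) of the tested genes of the partner list (left, 7 genes) and the membrane repair list (right, 16 genes), ordered by mean, on each array. Red marks siSelT-1 and blue siSelT-5, circles replicate 1 and squares replicate 2. S100a11, S100a6, Capg and Ahnak lie above 0 on all 4 arrays, and Chmp2b and Vps4b below 0 on all 4.

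The gene whose 4 ratios lay nearest to those of each member, by Euclidean distance among the 4754 genes, was Gnai2 for Anxa4 (distance 0.06), Prkca for Anxa1 (0.09), Syvn1 for Anxa6 (0.06), Lpp for Anxa5 (0.07) and Dgcr6 for Anxa7 (0.05). For Anxa11 it was H2-DMb2 (0.09), for Anxa3 Atp6v1g1 (0.11) and for Anxa2 Ppp1r32 (0.14). Nearest to the members' median profile were Zbtb20 (0.05), Ddx39b (0.06) and Acin1 (0.07). Over 4 arrays many genes lie this close, and the distance describes the ratios alone.

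Probes with a value numbered 7689 and 9232 on the siSelT-1 arrays, against 20268 and 18361 on those of siSelT-5. Across the 4754 genes, which are not independent, siSelT-1 replicates correlated at Pearson's r = 0.844 and siSelT-5 replicates at 0.660. Of 11 fibroblast markers 8 were tested, and 4 rose and 3 fell as deposited, where 45.7% of genes were higher and 8.04% lower. Centred, 2 rose and 4 fell, where 20.5% of genes were higher and 21.9% lower. Postn had a mean of -0.78 with siSelT-1 and 1.64 with siSelT-5 as deposited. Since ratios hold no levels, the labelled cell type could not be checked further. Of 4 endothelial markers the 2 tested rose on both scales for both constructs together, Pecam1 to 0.70 and Tie1 to 0.72 as deposited. Centred, Pecam1 stood at 0.74 with siSelT-1 and 0.13 with siSelT-5, and Tie1 at 0.66 and 0.24. For siSelT-5 alone neither passed centred (limma adjusted p = 0.454 and 0.339). The muscle marker Des rose to 0.44 as deposited and stood at 0.18 centred, where it did not pass (limma adjusted p = 0.137). The macrophage marker Lyz2 stood at -0.20 as deposited and did not pass, and fell to -0.47 centred (limma adjusted p = 0.00739). None of the 5 epithelial markers was tested. Their part in the annexin ratios was not tested.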

How the data were processed

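RNA of knockdown and vector cells was hybridised together on 4 two-colour oligonucleotide arrays, after oligo-dT priming and dye coupling per the labels' protocols. The deposited values are log ratios, read here as log2 of Cy5 over Cy3, with base, background correction, normalization and filter not given in the sources used here. A reversed ratio would turn every direction, and folds rest on base 2. The 8 annexins and the gene lists were chosen with earlier results of these data known.

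Names came from the platform annotation, and 18041 of 18129 singly named probes matched GRCm38.p6 identifiers. A gene was tested where a singly named probe had values on all 4 arrays, as the mean of such probes. The limma package 3.58.1 (lmFit, then eBayes, in R 4.3.3) gave each of 4754 genes a mean per construct, tested against 0 or against the other construct; 2 degrees of freedom remained. The spread of vector cultures enters no test, and the number of arrays limits precision. The pipeline was tested on simulated data. Alternatives were centring, scaling, a common spread, robust eBayes, array weights, a replicate block, single or unnamed probes, a looser filter, 1 construct alone and each array left out. All members, up to 4 genes per list with the smallest unadjusted p, and nearest genes were named, and other list members were chosen after their values were seen.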

Additional observations from a re-analysis of the deposited data

How the results depend on the processing

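As reported, limma called 5, 2, 5 and 0 annexins for both constructs, siSelT-1, siSelT-5 and siSelT-1 minus siSelT-5. The same fits called 2554, 650, 2563 and 3 of 4754 genes. Leaving out single arrays gave 0 to 7, 0 to 5, 3 to 6 and 0 to 4. Centring gave 3 for both constructs, 3 for siSelT-5 and 0 for siSelT-1, beside 2015, 1864 and 423 of 4754 genes. Scaling as well gave 5, 2 and 3, beside 2228, 1460 and 1588 genes. The 5 were 3 higher, with Anxa2 and Anxa11 called again, and 2 lower. For both constructs a common spread, the replicate block and the looser filter each gave 4, with Anxa5 the call lost. The genes called were 2535 and 2558 of 4754, and 2561 of 6024 for the looser filter. For siSelT-1 a common spread gave 1 beside 752 of 4754 genes, and single probes 1 beside 709 of 6251 probes. The looser filter gave 0 beside 67 of 6024 genes. Array weights gave 5 beside 1920 of 4754, and the siSelT-1 arrays alone 5 beside 2083 of 4968. For siSelT-5 array weights gave 3 beside 2016 of 4754 genes, and its own arrays alone 1 beside 2798 of 9711. The replicate block gave 4, 0, 5 and 0, beside 2558, 35, 2566 and 0 of 4754 genes. The replicate numbers share only a label: across genes the deviations of the constructs correlated at 0.0758. The block lost both siSelT-1 calls. Signs turned for members that had not passed, as follows. Centring moved Anxa5 for siSelT-1 to -0.020 (-0.029 scaled), Anxa7 for siSelT-5 to -0.35 (-0.28 scaled), and the differences of Anxa1 to 0.0037 and Anxa7 to 0.13, and scaling that of Anxa6 to 0.038. Leaving out single arrays spread Anxa7 from -0.081 to 0.043 for both constructs, from -0.21 to 0.042 for siSelT-1 and from -0.042 to 0.13 for siSelT-5. Anxa5 for siSelT-1 ran from -0.011 to 0.25, Anxa1 for siSelT-5 from -0.22 to 0.046, Anxa3 for siSelT-5 from -0.049 to 0.92 and its difference from -0.76 to 0.20. Of these, Anxa7 for siSelT-5 was called after centring. The causes were not tested, beyond fewer samples where arrays were left out. Over single members and alternatives, 339 values kept direction and side of the threshold, 50 lost a call, 28 gained one and 15 turned sign.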
